A study of Mus musculus with 8 samples.

Results

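The genes described are the TGF-beta ligands (Tgfb1, Tgfb2 and Tgfb3), their receptors (Tgfbr1, Tgfbr2 and Tgfbr3) and the latent TGF-beta binding proteins (Ltbp1 to Ltbp4). They were taken by gene symbol, and all 10 were present among the 31723 genes of the deposited table. RNA came from muscle stem cells, the cells that repair muscle fibres, taken from hindlimb muscle of C57BL/6 mice with the WT genotype. There were 4 libraries from old mice (20 months) and 4 from young mice (3 months), all made from amplified cDNA of freshly isolated cells. The labels do not say whether a library came from 1 animal or from a pool, so the p-values speak only of how these libraries spread. The question the design poses is what differs between old and young muscle stem cells.

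TGF-beta is made as a precursor that is cut by a furin-type protease and then stays bound to its own propeptide. That latent complex is tethered to a latent TGF-beta binding protein and, through it, to the fibrillin matrix, until an integrin, a protease or a thrombospondin frees the ligand. The freed ligand binds the type II receptor (Tgfbr2), which phosphorylates the type I receptor (Tgfbr1), and Smad2 and Smad3 then carry the signal to the nucleus. Betaglycan (Tgfbr3) presents ligand, TGF-beta2 above all, to the type II receptor. In skeletal muscle TGF-beta is known for restraining myogenic differentiation and promoting matrix deposition.

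The features that separate the ligands in release are visible in their coding sequences. These are shown because the processing protease and the integrins that act on them were measured too. The first set spans the codons that the protease cuts after. In capitals are the last codons before the mature ligand, a stretch that begins and ends with arginine. They were read from GENCODE M21 transcripts (GRCm38) in the longest open reading frame, just before the codons of the mature ligand at its end.
Tgfb1 (codon 275): cacagctcaCGGCACCGGAGAgccctggat
Tgfb2 (codon 327): tccagccggCGGAAGAAGCGCgctttggat
Tgfb3 (codon 297): ggcagtcagAGGAAGAAGAGGgccctggac
The second set spans the arginine-glycine-aspartate codons, in capitals, that alpha-v integrins recognise in the propeptide.
Tgfb1 (codon 244): ccccaaacgtCGGGGCGACctgggcaccat
Tgfb3 (codon 261): tgaccatggcCGTGGAGACctggggcgtct
No such triplet of codons was found in the Tgfb2 reading frame (0 in 442 codons). Over the bases that encode the mature ligand, Tgfb1 and Tgfb2 were identical at 68.8% of positions, Tgfb1 and Tgfb3 at 73.5%, and Tgfb2 and Tgfb3 at 70.8%.

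Library depth ran from 19.04 to 34.68 M reads over all genes. The mean was 23.5 ± 3.51 M in old and 27.8 ± 5.69 M in young (SD, n = 4 each, exact permutation p = 0.286, two-sided). The muscle stem cell markers summed to 161047 to 188654 normalized counts in old libraries and 157736 to 191353 in young ones. None of these 10 markers was at 0, and 2 of them, Itga7 and Calcr, were lower in old cells by limma, as was Heyl by DESeq2. At an unadjusted p under 0.05 in limma, 2 were higher and 3 lower. The higher ones were Chodl (log2 fold change 0.32, limma, adjusted p = 0.0978) and Vcam1 (0.34, limma, adjusted p = 0.165). The markers of other cell types were not absent. Those of fibro-adipogenic progenitors, the matrix-producing fibroblasts of muscle, summed to 99849 to 244265 in old and 62231 to 106664 in young, with 3 of 12 higher in old by limma (Lum, Dcn and Smoc2) and none at 0. That sum rests mostly on Gsn and Dcn, which were at 138698 and 76702 in old library 2, where Pdgfra was at 1621. The median log2 fold change of the fibro-adipogenic markers was 1.73, with 9 of the 12 higher and 1 lower at an unadjusted p under 0.05. DESeq2 called 6 of them higher and 1 lower. Over all 14822 tested genes 5.22% were called by limma and 20.8% had an unadjusted p under 0.05. Those of tenocytes summed to 11767 to 108400.4 in old and 3248 to 8467 in young, with 5 of 7 higher by limma (Thbs4, Tnmd, Mkx, Comp and Fmod), 6 by DESeq2 and none at 0. Their median log2 fold change was 2.46. Those of endothelial cells summed to 17579 to 44976 in old and 15460.0 to 54838 in young, with 0 of 8 called by limma, edgeR or DESeq2, 0 at an unadjusted p under 0.05 in limma and none at 0. Macrophage markers summed to 513 to 1713 in old and 396 to 933 in young, with 0 of 7 tested called by limma, edgeR or DESeq2 and 1 higher at an unadjusted p under 0.05. Smooth muscle and pericyte markers summed to 10537 to 14347 in old and 5897 to 14590.5 in young, with 1 of 6 higher by limma (Abcc9). Their median log2 fold change was 0.70, with 4 of the 6 higher and 0 lower at an unadjusted p under 0.05. Of the Schwann, lymphocyte and erythroid markers none was called by limma, edgeR or DESeq2, nor had an unadjusted p under 0.05 in limma. In such bulk samples a change in the number of cells of a type and a change in RNA per cell cannot be told apart.

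Of the 10 genes, 1 rose in old cells and none fell. The riser was Tgfbr2, the type II receptor, by 1.38-fold. The test was limma on log2(normalized count + 1), two-sided, with Benjamini-Hochberg adjustment over the 14822 genes averaging 10 or more normalized counts, and a threshold of 0.05. All 10 genes were among those tested. Over all tested genes 3.34% were called higher and 1.88% lower, so that 1 called gene of 10 is read against a background of 5.22% called either way. At an unadjusted p under 0.05, 1 of the 10 was higher and 1 lower (Ltbp1), against 20.8% of all tested genes either way. On the recovered reads, edgeR and DESeq2 each called 1 higher and 0 lower. The median log2 fold change (old over young) of the 10 genes was 0.066, beside 0.045 over all tested genes. The values of all 10 genes in each library are plotted as normalized counts, which are reads per gene that the authors scaled by a factor for each library.

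**Figure D1:**
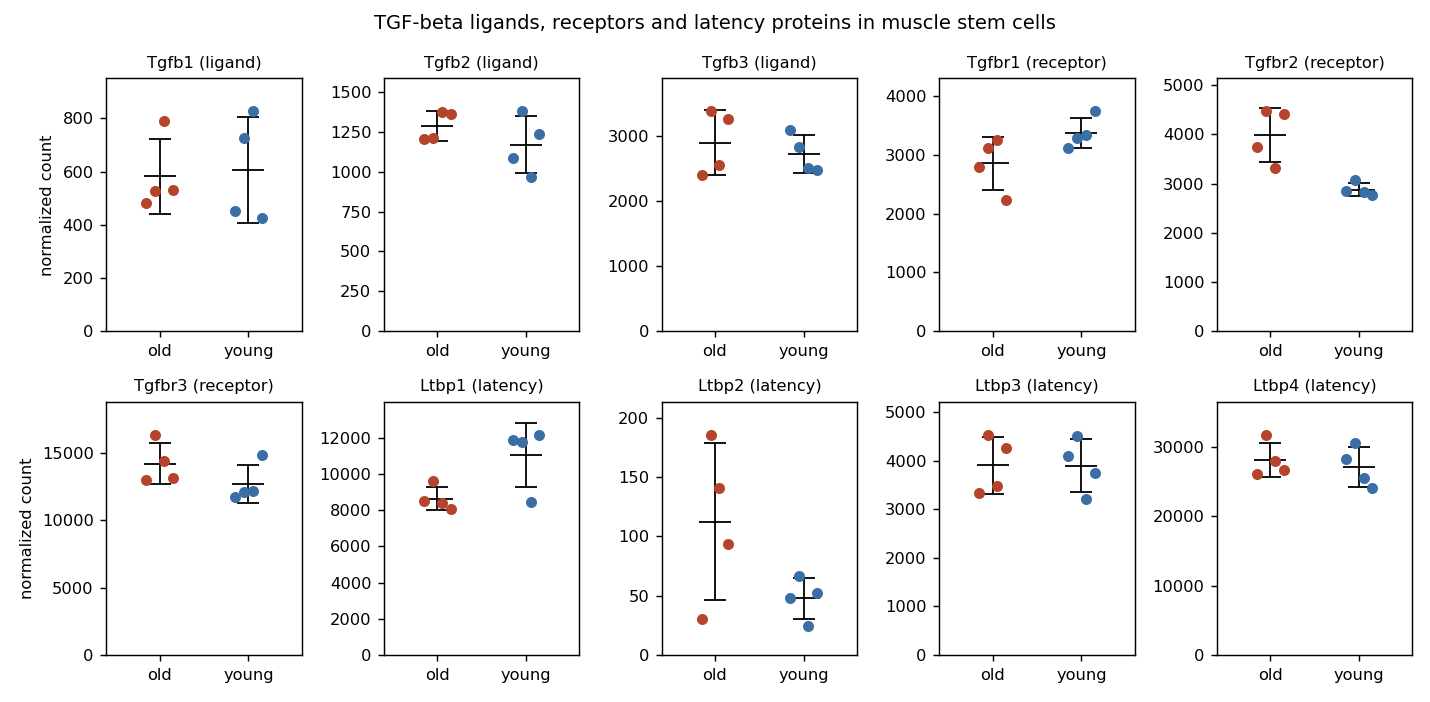
Normalized counts (y axis, linear from 0) of each of the 10 genes in 4 old and 4 young libraries. Points are libraries, the long bar is the mean and the whiskers are 1 SD. Tgfbr2 is the gene whose old libraries all lie above its young libraries.

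Tgfb3 was the most abundant ligand transcript per kilobase, and none of the ligands passed the test. Tgfb3 had 2398, 3371, 2542 and 3259 normalized counts in old libraries 1 to 4, against 3089.8, 2826, 2499 and 2476 in young libraries 1 to 4. The ages overlapped, with old libraries 2 and 4 the highest and old library 1 the lowest. Its log2 fold change was 0.077 ± 0.13 (SE), with a 95% interval of -0.21 to 0.37 (limma, adjusted p = 0.796). Tgfb2, the ligand that depends most on betaglycan, had 1206, 1208, 1371 and 1363 normalized counts in old libraries and 1086, 1377, 968 and 1237 in young ones. The old values lay close together and inside the range of the young ones. Tgfb2 had a log2 fold change of 0.15 ± 0.12 (95% interval -0.11 to 0.42, limma, adjusted p = 0.526).

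Tgfb1 was the ligand that varied most within an age. It had 481, 529, 791 and 532 normalized counts in old libraries 1 to 4, against 452, 726, 827 and 425 in young libraries 1 to 4. The high libraries were old library 3 and young libraries 2 and 3, and the other 5 lay between 425 and 532. The same 3 libraries had the highest mean log2 level of the 8 endothelial markers, 12.3 in old library 3 and 11.6 and 12.5 in young libraries 2 and 3, while the other 5 lay between 10.7 and 11.2. The log2 fold change of Tgfb1 was -0.027 ± 0.24 (95% interval -0.55 to 0.50, limma, adjusted p = 0.966). With the endothelial marker level as a covariate it was -0.0018 ± 0.12, a smaller standard error around a like value. The part of endothelial RNA in the level of Tgfb1 was not tested.

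Per kilobase of the longest protein-coding transcript, Tgfb3 made up 62.0 ± 5.83% of the ligand signal in old and 61.4 ± 5.38% in young libraries (SD, n = 4 each). Tgfb1 made up 19.6 ± 4.63% in old and 21.1 ± 6.26% in young, and Tgfb2 18.4 ± 1.84% in old and 17.4 ± 2.79% in young. The shares differed between ages by less than the spread between libraries. The order of Tgfb1 and Tgfb2 rests on the length used, since Tgfb1 was above Tgfb2 in 4 of 8 libraries by transcript length and had the lower mean level by the length of all annotated exons.

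**Figure D2:**
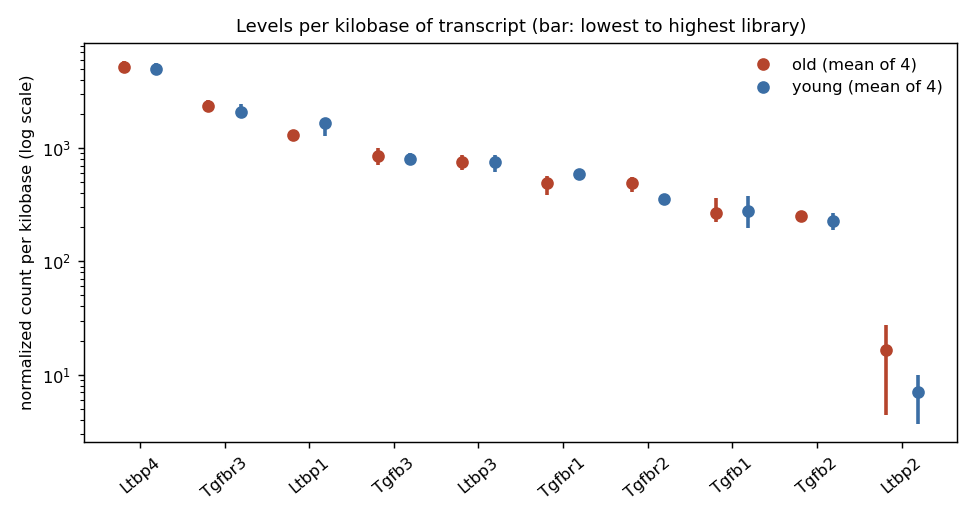
Normalized counts per kilobase of the longest protein-coding transcript (y axis, log scale) for the 10 genes in descending order of their mean over 8 libraries. Points are means of 4 libraries and bars run from the lowest to the highest library. Mean levels run from 5218 for Ltbp4 in old cells down to 7.06 for Ltbp2 in young cells.

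Among the receptors the type II receptor rose while the type I receptor did not pass the test. Tgfbr2 had 3750.2, 4466, 3324 and 4408 normalized counts in old libraries 1 to 4, against 2849.6, 3067, 2822 and 2771 in young libraries 1 to 4. Every old library was above every young one, as was so for 7.99% of all tested genes (for 5.46% every old library was below every young one, which held for none of the 10). The young libraries lay close together, and old library 3 was the old library nearest to them. Mean levels were 3987 ± 548 in old and 2878 ± 130.3 in young (SD, n = 4 each), and the log2 fold change was 0.46 ± 0.10 (95% interval 0.23 to 0.69, limma, adjusted p = 0.0333). The call was lost without the mean-variance trend (0.46, adjusted p = 0.0878), and it was kept without old library 3 (0.54, adjusted p = 0.0138) or young library 2 (0.49, adjusted p = 0.0490). It was also lost without old library 1 (0.49, adjusted p = 0.0679), old library 2 (0.40, 0.0887), old library 4 (0.41, 0.0971), young library 1 (0.46, 0.0878), young library 3 (0.45, 0.0538) or young library 4 (0.44, 0.0919).

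The promoter of Tgfbr2, the 1 gene of the 10 that passed the test, is shown for that reason. RefSeq (GRCm38.p6) gives 250 bases before and 50 after its start at chr9:116175314-116175613 on the minus strand, printed 5′ to 3′ with CCAAT boxes on either strand in capitals.
Tgfbr2: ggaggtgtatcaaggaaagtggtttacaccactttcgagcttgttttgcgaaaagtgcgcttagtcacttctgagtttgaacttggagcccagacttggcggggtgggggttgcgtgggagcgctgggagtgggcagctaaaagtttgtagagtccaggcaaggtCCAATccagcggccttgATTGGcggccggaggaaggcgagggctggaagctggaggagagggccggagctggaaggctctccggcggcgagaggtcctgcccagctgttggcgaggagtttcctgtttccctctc
The motifs searched on both strands were the CCAAT box, the GC box core GGGCGG, the TATA box TATAAA and the Smad-binding core CAGAC. The matches found do not overlap. The motif CCAAT occurred 2 times, once on each strand, and 37.4% of the 32851 promoters of the table hold it. CAGAC occurred once, and 49.6% hold it. GGGCGG and TATAAA were not in these 300 bases, and 35.7% and 13.6% of promoters hold them. A match describes the letters and is no evidence of binding.

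Tgfbr2 was high in the libraries with a high level of fibro-adipogenic progenitor markers and of tenocyte markers. The mean log2 level of the 12 fibro-adipogenic progenitor markers was 11.3, 11.6, 10.5 and 11.9 in old libraries 1 to 4, against 9.91, 10.8, 9.62 and 9.53 in young libraries 1 to 4. Old libraries 2 and 4 were highest in both measures, old library 3 was the lowest old library in both, and young library 2 was the highest young library in both. The mean log2 level of the 7 tenocyte markers was 11.97, 10.97, 10.5 and 9.21 in old libraries 2, 4, 1 and 3, against 9.06, 8.77, 8.56 and 8.01 in young libraries 2, 1, 4 and 3. Every old library was above every young one, in the same order as Tgfbr2 except for young libraries 3 and 4. The part of tenocyte RNA in the level of Tgfbr2 was not tested. With the fibro-adipogenic marker level as a covariate the log2 fold change of Tgfbr2 was 0.16 ± 0.14 (limma, adjusted p = 0.821). In the same fit 1 of 14822 genes was higher and 0 were lower, and only young library 2 lay above an old library in that marker level, so age and that marker level could hardly be told apart.

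**Figure D3:**
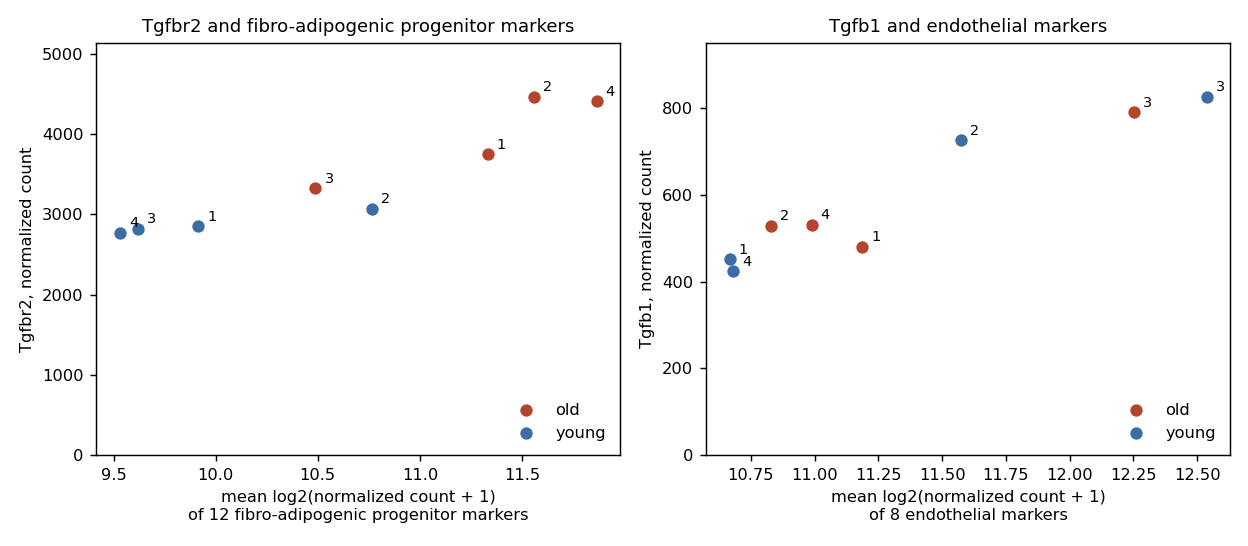
Left, Tgfbr2 (normalized count, y axis from 0) against the mean log2(normalized count + 1) of 12 fibro-adipogenic progenitor markers (x axis). Right, Tgfb1 against the same mean of 8 endothelial markers. Each point is a library with its replicate number. Tgfbr2 is highest in old libraries 2 and 4, and Tgfb1 is highest in young library 3, old library 3 and young library 2.

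Tgfbr1, the kinase that phosphorylates Smad2 and Smad3, had 2798, 3112, 3257 and 2235 normalized counts in old libraries, against 3119, 3279.6, 3339.8 and 3736 in young ones. Old libraries 1, 2 and 4 lay below every young library, and old library 3 lay inside the young range. The log2 fold change of Tgfbr1 was -0.25 ± 0.12 (95% interval -0.52 to 0.017, limma, adjusted p = 0.274). Among the 11428 genes averaging 50 or more normalized counts that were compared, those whose centred log2 values lay nearest to those of Tgfbr2 over the 8 libraries were Mutyh, Gypc and G0s2, with root mean square differences of 0.054, 0.078 and 0.078. Each had a positive log2 fold change, which follows from being picked for likeness to Tgfbr2. None of them passed the test (limma, adjusted p = 0.207, 0.0609 and 0.0670). The ratio of Tgfbr2 to Tgfbr1 per kilobase was 0.954, 1.02, 0.726 and 1.40 in old libraries 1 to 4, against 0.650, 0.665, 0.601 and 0.528 in young libraries 1 to 4. It is a description of the same values, in which every old library was above every young one.

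Tgfbr3 was the most abundant receptor transcript per kilobase. It had 12999.8, 16317, 14377 and 13114 normalized counts in old libraries and 11753, 12093, 12153 and 14817 in young ones, with young library 4 inside the old range. Its log2 fold change was 0.16 ± 0.11 (95% interval -0.076 to 0.40, limma, adjusted p = 0.439). Per kilobase it made up 70.2 ± 0.844% of the receptor signal in old and 68.8 ± 1.51% in young (SD, n = 4 each). Tgfbr1 made up 14.9 ± 1.88% in old and 19.3 ± 0.378% in young, with no overlap between the ages, and Tgfbr2 14.9 ± 2.19% in old and 11.8 ± 1.28% in young. These are shares of a common sum, so each share also depends on the levels of the other receptors. Mean levels per kilobase were 495 in old and 585 in young for Tgfbr1, and 493 and 356 for Tgfbr2. For Tgfbr3 they were 2333 in old and 2087 in young. The counts of Tgfbr1 itself overlapped between the ages (limma, adjusted p = 0.274).

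None of the latent TGF-beta binding proteins passed the test, and they covered the widest range of levels. Ltbp4, which supports elastic fibre assembly besides tethering latent TGF-beta, was the highest of the 10 genes per kilobase, at percentile 98.3 of the 14552 tested genes with an annotated length. It had between 26133 and 31702 normalized counts in old libraries and between 24105.5 and 30547 in young ones, and its log2 fold change was 0.055 ± 0.10 (95% interval -0.18 to 0.29, limma, adjusted p = 0.823). Ltbp3, which is required in mouse for normal bone growth, had between 3333 and 4526 in old and between 3218 and 4516 in young. Ltbp3 was at a log2 fold change of 0.00018 ± 0.13 (95% interval -0.29 to 0.29, limma, adjusted p = 1.00).

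Ltbp1, which links latent TGF-beta to fibrillin and fibronectin matrix, had 8505, 9593, 8389 and 8094 normalized counts in old libraries 1 to 4, against 11855, 11759, 8449 and 12152 in young libraries 1 to 4. Young library 3 lay inside the old range and the other 3 young libraries lay above it. Its log2 fold change was -0.34 ± 0.12 (95% interval -0.61 to -0.070, limma, adjusted p = 0.144). Without young library 3 it was -0.47 ± 0.089 and passed (adjusted p = 0.0179), as it did without libraries 3 of both ages (-0.45 ± 0.10, adjusted p = 0.0354) and with the endothelial marker level as a covariate (-0.35 ± 0.095, adjusted p = 0.0408). Over the 22 alternatives the adjusted p of Ltbp1 ran from 0.0179 to 0.636. Young library 3 also had the highest endothelial marker level of all libraries (12.5). The next highest were old library 3 (12.3) and young library 2 (11.6), where Ltbp1 was at 8389 and 11759, near other libraries of their ages. The part of endothelial RNA in the level of Ltbp1 was not tested.

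Ltbp2, which binds fibrillin without binding latent TGF-beta, was scarce. It had 30.03, 185, 141 and 93.8 normalized counts in old libraries 1 to 4, against 48.0, 66.5, 24.7 and 52.1 in young libraries 1 to 4. Old libraries 2, 3 and 4 lay above every young one, and old library 1 lay inside the young range. Its log2 fold change was 1.03 ± 0.53 (95% interval -0.14 to 2.19, limma, adjusted p = 0.306), the widest interval of the 10. Of its annotated exon bases 9.34% are shared with an antisense gene, and without stated strandedness the reads of both cannot be told apart. The same holds for 2.01% of the exon bases of Ltbp3, 2.14% of Tgfb2, and 7.597% and 4.818% of Tgfb3 (shared with 2 genes), while 4.54% of those of Tgfbr3 are shared with a gene on the same strand. The exons of the other 5 genes, Tgfbr2 among them, overlap no annotated gene.

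**Figure D4:**
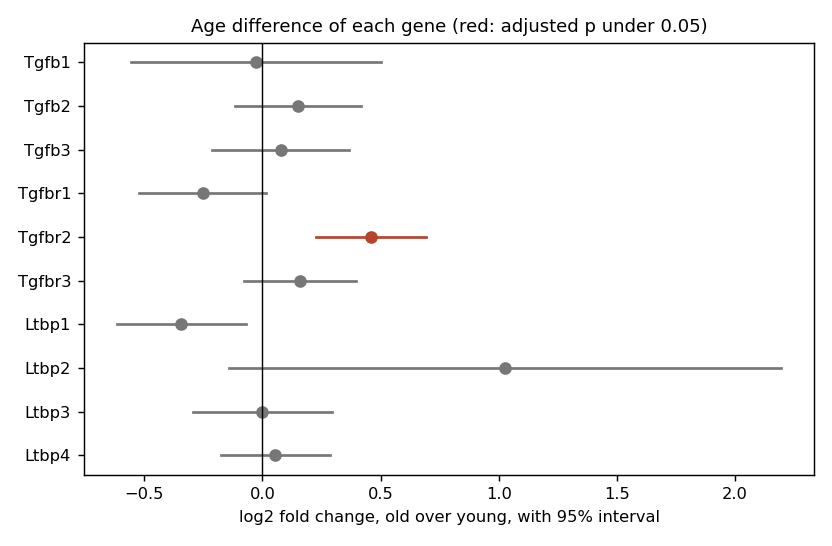
Log2 fold change, old over young, of each of the 10 genes (x axis) with its 95% interval from limma. The interval of Tgfbr2 (0.23 to 0.69) is drawn in red as the one that passed adjustment over all tested genes, and that of Ltbp2 is the widest.

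The partners of the receptors, the activators, the matrix partners and the target genes were taken from lists that do not hold the 10 genes. These lists were chosen with earlier results of these data known, so their shares of called genes are descriptive only. Of 12 receptor partners and antagonists 2 rose and none fell by limma (16.7% called, against 5.22% of all tested genes), with a median of 0.22. No other gene of the list had an unadjusted p under 0.05, and edgeR called 1 higher and DESeq2 2, with 0 lower in either. Dab2, an adaptor that links the receptors to Smad2 and Smad3, had 2595, 3611, 2478 and 2635 normalized counts in old and 1329.6, 1328, 1861 and 1663 in young (log2 fold change 0.87 ± 0.15, limma, adjusted p = 0.0107). Vasn, a transmembrane protein that binds and traps TGF-beta, had 1007 ± 139.9 in old and 557 ± 212 in young (0.91 ± 0.23, limma, adjusted p = 0.0479), and young library 2 overlapped the old range. Vasn lost its call without old libraries 1, 2 or 4 or young libraries 1, 3 or 4, and over the runs that left out a library it lay between 0.77 and 1.14, with adjusted p between 0.0106 and 0.124. It was not called by edgeR (0.83, adjusted p = 0.0691), without the filter on low values (0.91, 0.0600) or without the mean-variance trend (0.91, 0.103), and DESeq2 called it (0.82, 0.00932). Cd109, a co-receptor that inhibits signalling, was at 0.40 ± 0.21 and Strap, a Smad7 partner, at -0.14 ± 0.11.

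None of the 14 Smads and Smad regulators was called by limma. At an unadjusted p under 0.05 in limma, 3 were lower and 0 higher, against 20.8% of all tested genes either way. edgeR called 0 and DESeq2 called 1, Smad3, as lower. Their median was -0.18. Smad3, the transducer, had 1422 ± 192 normalized counts in old and 1994 ± 364 in young (-0.48 ± 0.15, limma, adjusted p = 0.0978). It passed by DESeq2 (-0.53, adjusted p = 0.0288), with the endothelial covariate (-0.48, 0.0499), without young library 3 (-0.61, 0.0205) and without libraries 3 of both ages (-0.65, 0.0230). The Smad anchor Zfyve9 was at -0.35 ± 0.12, the ubiquitin ligase Smurf1 at -0.24 ± 0.097 and the corepressor Tgif1 at -0.21 ± 0.11.

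Of 17 tested genes that process or activate latent TGF-beta, 2 rose and 1 fell by limma (17.6% called), with a median of 0.39. edgeR also called 2 higher and 1 lower, and DESeq2 3 higher and 2 lower. Thbs1, the thrombospondin that can free TGF-beta from its propeptide, had 9043, 19349, 6035 and 9801 normalized counts in old libraries and 3230.4, 5334, 4803 and 4127 in young ones (1.23 ± 0.30, limma, adjusted p = 0.0432). All old libraries were above all young ones, with old library 2 far above the rest. Leaving out any 1 library other than old library 3 ended that call (0.92 to 1.48, adjusted p 0.0145 to 0.114 over the 8 runs). Itgb5, which pairs with alpha-v in an integrin that binds the triplet printed above, had 2907 ± 565 in old and 1652 ± 299 in young (0.81 ± 0.17, limma, adjusted p = 0.0228). It lost the call without old libraries 2 or 4 or young libraries 1 or 4 (0.69 to 0.92, adjusted p 0.0169 to 0.0680). Bmp1, a protease that cuts Ltbp1 and collagen propeptides, fell to 3828 ± 453 in old, against 6787 ± 889.6 in young (-0.82 ± 0.12, limma, adjusted p = 0.00562), and kept its call without each library in turn. Furin, which cuts the sites printed above, was at -0.40 ± 0.12 (adjusted p = 0.0900), and without young library 3 it passed at -0.49 (adjusted p = 0.0338). It also passed by DESeq2 (-0.44, adjusted p = 0.0331) and without libraries 3 of both ages (-0.56, 0.0153).

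Of 12 matrix partners 3 rose and none fell by limma (25.0% called), with a median of 0.51. At an unadjusted p under 0.05, 6 were higher and 2 lower, against 20.8% of all tested genes either way. edgeR called 3 higher and 0 lower, and DESeq2 4 higher and 1 lower (Emilin1). Bgn, the proteoglycan biglycan that binds TGF-beta, had 5557 ± 1280.5 normalized counts in old and 2712 ± 529 in young (1.03 ± 0.18, limma, adjusted p = 0.0104). Aspn, asporin, a relative of Bgn that also binds TGF-beta, had 1789, 3199, 1057 and 2014 in old and 351, 848, 600.2 and 353 in young (1.90 ± 0.35, limma, adjusted p = 0.0150), and lost its call without old library 4 (adjusted p = 0.0511). Efemp1, a fibulin, was at 2.11 ± 0.43 (limma, adjusted p = 0.0230). It kept its call in 3 of the 8 runs that left out a library and lost it without old libraries 1, 2 or 4 or young libraries 1 or 4 (1.83 to 2.50, adjusted p 0.00545 to 0.0686). Emilin1, which restrains precursor cleavage, was at -0.33 ± 0.093 (limma, adjusted p = 0.0758). It passed by DESeq2 (-0.37, adjusted p = 0.0158), with sample weights (-0.35, 0.0497) and with the endothelial covariate (-0.33, 0.0493).

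Of 24 known target genes of TGF-beta 6 rose and 1 fell by limma (29.2% called, against 5.22% of all tested genes), with a median of 0.48 beside 0.045 for all. At an unadjusted p under 0.05, 14 were higher and 1 lower in limma, against 20.8% of all tested genes either way. edgeR also called 6 higher and 1 lower, and DESeq2 9 higher and 1 lower. The genes of this list were chosen with earlier results of these data known, so the share called is descriptive only. Several of these genes also answer to other signals. Ccn2, the matricellular growth factor, had 13002, 11722, 13289 and 14232 normalized counts in old libraries and 4236, 6114, 7046 and 5653 in young ones (1.20 ± 0.14, limma, adjusted p = 0.00222). Every old library was above every young one by a wide gap. Lox, which crosslinks collagen, had 8408, 14326, 7721 and 7469 in old and 3659, 3946, 3381 and 4927 in young (1.21 ± 0.20, limma, adjusted p = 0.00934). Nox4, an oxidase that makes hydrogen peroxide, had 223, 288, 99.8 and 271 in old and 10.8, 63.6, 36.0 and 14.9 in young (2.99 ± 0.54, limma, adjusted p = 0.0132), a large difference at a low level.

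Timp1 rose by 1.01 ± 0.16 and Timp3 by 0.78 ± 0.16 (limma, adjusted p = 0.00662 and 0.0248), both inhibitors of metalloproteases. Cdkn1a, the cell cycle inhibitor p21, fell to 11248 ± 2169 in old, against 18233 ± 2384 in young (-0.71 ± 0.15, limma, adjusted p = 0.0244). Ccn2, Timp1, Lox and Nox4 kept their calls without each library in turn. Timp3 lost its call without old libraries 1, 2 or 3 or young libraries 1 or 4 (0.68 to 0.92, adjusted p 0.00942 to 0.0712), and Cdkn1a without old library 2 or young libraries 1 or 4 (-0.79 to -0.58, adjusted p 0.0254 to 0.0665).

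With the fibro-adipogenic progenitor marker level as a covariate, none of the 16 called genes of these lists and of the 10 passed limma, while all kept their sign. Their log2 fold changes moved by unequal amounts in that fit, in which age and that marker level could hardly be told apart. Standard errors there were 0.25 for Ccn2, 0.35 for Lox, 0.18 for Bmp1, 0.24 for Efemp1 and 0.67 for Nox4. Whether the moves differ between genes was not tested, so their order is a description only. Ccn2 (1.19), Lox (1.118), Dab2 (0.95), Timp3 (0.82), Timp1 (0.82) and Bmp1 (-1.09) moved the least. Among these, Dab2, Timp3 and Bmp1 moved away from 0, and Ccn2, Lox and Timp1 towards it. Larger moves, all towards 0, were those of Nox4 (1.34), Aspn (0.75), Thbs1 (0.52), Itgb5 (0.50), Bgn (0.45), Efemp1 (0.32), Vasn (0.25), Tgfbr2 (0.16) and Cdkn1a (-0.37). Without the mean-variance trend the calls of Tgfbr2, Vasn, Thbs1, Itgb5, Aspn, Efemp1, Timp3 and Cdkn1a were lost as well. Without libraries 3 of both ages, which had the highest endothelial marker levels of their ages, 15 of the 16 passed.

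**Figure D5:**
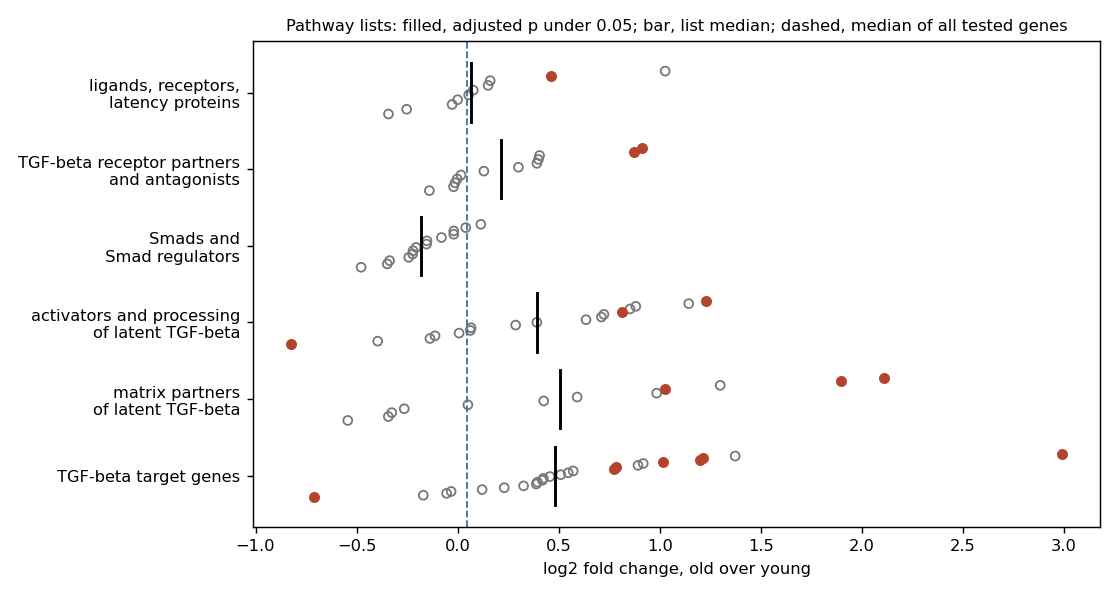
Log2 fold change, old over young (x axis), of the 10 genes and of the tested genes of 5 pathway lists. Filled points passed limma at an adjusted p under 0.05, vertical bars are list medians, and the dashed line is the median of all tested genes (0.045). The target genes hold 6 filled points to the right and 1 to the left.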

How the data were processed

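The deposited table holds signal values, normalized read counts per gene and library, which the authors obtained by dividing counts by a size factor. Tools listed in the submitters' processing notes are DESeq2, featureCounts, Subread 1.5.1, STAR and Trim Galore 0.4.2, and the builds GRCm39 and mm10. Which build was used for counting and whether strand was used are not given in the sources used here. Each column is made of whole multiples of its smallest step (at least 99.97% of values within 0.01 of a whole read), so whole reads were recovered for the count tests.

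Old and young libraries were compared on log2(normalized count + 1) with limma 3.58.1 in R 4.3.3 (trended variance, two-sided, Benjamini-Hochberg, threshold 0.05). Genes with a mean under 10 were left out, which kept 14822 of 31723. The pseudocount makes fold changes of low genes too small. On recovered reads edgeR 4.0.16 called 409 genes higher and 298 lower in old, and DESeq2 1.42.0 called 768 higher and 601 lower, against 495 and 278 in limma.

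Levels were compared between genes per kilobase of the longest protein-coding transcript of GENCODE M21 (GRCm38). Promoters came from RefSeq (GRCm38.p6), which held 8 of the 10 genes. Genes named from each pathway list were those called, up to 8 by smallest p, filled to 4 by smallest p where fewer were called. Of the called target genes 1 is counted but not reported here. Marker lists are reported by their summed level. The genes and lists were chosen with earlier results of these data known. The 22 alternatives included other pseudocounts, filters, scalings and tools, marker levels as covariates and leaving out each library.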

Additional observations from a re-analysis of the deposited data

Results flagged for a closer look

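In 6 of 66 sets of 4 libraries 1 library stood apart from the other 3, by Dixon's test at the 95% level. Chance gives about 1 in 20 such sets. Among the ligands, Tgfb1 was at 791 normalized counts in old library 3, against 481 to 532 in the other old libraries. Among the receptors, Tgfbr3 was at 14817 in young library 4, against 11753 to 12153 in the other young libraries. Among the latency proteins, Ltbp1 was at 8449 in young library 3, against 11759 to 12152 in the other young libraries. The adaptor Dab2 was at 3611 in old library 2, against 2478 to 2635 in the other old libraries, and Lox was at 14326 in the same library, against 7469 to 8408. The Smad anchor Zfyve9 was at 1904 in young library 1, against 1527 to 1587 in the other young libraries.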

How the results depend on the processing

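Calls depended on the variance model and on marker covariates, and the cause was not tested. Genes higher and lower in old, 495 and 278, were 768 and 601 by DESeq2, 268 and 134 without the trend, 1 and 0 with the fibro-adipogenic marker covariate, 894 and 486 with the endothelial one, and 212 to 532 and 118 to 316 without 1 library each or libraries 3. Of the 10 genes, the 1 higher became 0 without the trend or with the fibro-adipogenic covariate (0 to 1 without 1 library each), and the 0 lower became 1 with the endothelial covariate or without libraries 3 of both ages (0 to 1 without 1 library each). Target genes higher, 6, were 9 by DESeq2, with the endothelial covariate or with the block, 0 with the fibro-adipogenic covariate and 4 to 7 without 1 library each. The 1 lower was 0 without the trend or with the fibro-adipogenic covariate, and 0 to 1 without 1 library each. Ltbp3 turned negative at equal totals (-0.0066), by edgeR (-0.032), DESeq2 (-0.041) or sample weights (-0.044), with the fibro-adipogenic (-0.37) or endothelial covariate (-0.0079), without libraries 3 (-0.037), and without old library 2 (-0.075), old 4 (-0.046), young 3 (-0.088) or young 4 (-0.015). With the fibro-adipogenic covariate the sign also turned for Ltbp4 (-0.11), Tgfb1 (0.096), Tgfb3 (-0.22) and Tgfbr1 (0.024). Without old library 2 it turned for Ltbp4 (-0.0047) and Tgfb3 (-0.0016). Tgfb1 turned positive with weights (0.036) and without old library 1 (0.056), old 2 (0.010), old 4 (0.0076), young 2 (0.078) or young 3 (0.14). Without 1 library each, Ltbp3 ran from -0.088 to 0.075, Ltbp4 from -0.0047 to 0.11, Tgfb1 from -0.18 to 0.14 and Tgfb3 from -0.0016 to 0.16. None of these reversed values was called. With the replicate number as a block 559 genes were higher and 252 lower, and Tgfbr2 stayed at 0.46 (limma, adjusted p = 0.0331). Deviations of same-numbered libraries correlated at 0.19, 0.072, 0.30 and -0.042 for numbers 1 to 4. Old libraries 1, 2 and 3 each correlated most with the young library of the same number. Old library 4 correlated most with young library 2 (0.14). The labels give no pairing, so whether the numbers pair the libraries was not settled. Depth was 19.04 to 34.68 M reads, and the scarce Ltbp2 (30.03 to 185 normalized counts in old, 24.7 to 66.5 in young) had the widest interval of the 10 genes.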
